A study of Mus musculus with 6 samples.

Results

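The V(D)J recombinase and end-joining genes are 10 genes of the 22838 in the expression table, taken by their symbols: Rag1, Rag2 and Dntt, which are active in lymphocyte precursors, and Xrcc4, Xrcc5, Xrcc6, Prkdc, Dclre1c, Lig4 and Nhej1, which repair DNA breaks in every cell type. RNA of tibial and femoral marrow had been sequenced from 3 wild-type and 3 Cbx2-/- mice, all 3 weeks old and of the 129/C57BL/6 strain, with 1 library per mouse. Wild-type animals weighed 12.3 g on average and Cbx2-/- animals 4.0 g, so genotype and body size cannot be told apart. The labels name no tissue-limited deletion, and the allele is not described in the sources used here. Values are FPKM, fragments divided by transcript length and by the mapped fragments of the library, so levels of different genes can be compared per length.

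Antigen receptor genes are assembled from V, D and J segments. The Rag1 and Rag2 proteins form the recombinase that cuts beside the segments, and the broken ends are then joined by the general end-joining machinery. Dntt adds bases without a template at the joints and so widens receptor diversity. In marrow, this reaction takes place mainly in B cell precursors, where the pre-B cell receptor reports a productive heavy chain.

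The libraries had the transcripts of marrow: Ptprc, the pan-leukocyte gene, stood at 30.8 to 39.8 FPKM in the wild type and 36.6 to 58.8 FPKM in Cbx2-/- libraries, and the granulocyte gene S100a8 at 13131 FPKM or more in each. Cbx2 itself was at 2.90, 3.83 and 2.75 FPKM in wild-type replicates 1 to 3 and at 2.11, 1.87 and 1.88 FPKM in Cbx2-/- replicates 1 to 3 (limma adjusted p = 0.0558). The following features set Cbx2-/- libraries apart from each other. Skeletal muscle transcripts (8 genes) summed to 390 and 437 FPKM in replicates 1 and 2 of the mutant group, against 13.6 FPKM in its replicate 3 and 23.2 to 33.7 FPKM in the wild type. A list of 14 proliferation genes summed to 566 FPKM in Cbx2-/- replicate 3, against 1166 and 1365 FPKM in replicates 1 and 2 and 1822 to 2017 FPKM in the wild type. Depth, estimated from the smallest steps in the low values, was about 0.92 to 1.21 times that of wild-type replicate 1 in the other libraries.

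The sequences before the starts of 5 members are shown because Rag1, Rag2 and Dntt move together in these data while Lig4 and Xrcc5 do not follow them to the same extent. Each is the 250 bases before a RefSeq start (GRCm38.p6), written along the strand of the gene, with each CG dinucleotide in capitals. They lie at chr2:101649533-101649782 on the minus strand for Rag1, chr2:101624462-101624711 on the plus strand for Rag2 and chr19:41029025-41029274 on the plus strand for Dntt. Those of the other genes lie at chr8:9976312-9976561 on the minus strand for Lig4, where it is the second of its 2 RefSeq starts, and chr1:72307171-72307420 on the plus strand for Xrcc5.
Rag1: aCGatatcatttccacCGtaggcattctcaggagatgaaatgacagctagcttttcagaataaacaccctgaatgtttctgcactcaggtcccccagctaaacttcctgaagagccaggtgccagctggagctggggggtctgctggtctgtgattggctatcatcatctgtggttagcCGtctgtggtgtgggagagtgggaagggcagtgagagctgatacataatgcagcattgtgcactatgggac
Rag2: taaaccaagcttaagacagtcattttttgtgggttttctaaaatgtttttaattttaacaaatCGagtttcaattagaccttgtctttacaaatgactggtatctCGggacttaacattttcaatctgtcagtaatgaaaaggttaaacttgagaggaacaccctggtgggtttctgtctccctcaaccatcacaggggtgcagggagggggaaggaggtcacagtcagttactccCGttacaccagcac
Dntt: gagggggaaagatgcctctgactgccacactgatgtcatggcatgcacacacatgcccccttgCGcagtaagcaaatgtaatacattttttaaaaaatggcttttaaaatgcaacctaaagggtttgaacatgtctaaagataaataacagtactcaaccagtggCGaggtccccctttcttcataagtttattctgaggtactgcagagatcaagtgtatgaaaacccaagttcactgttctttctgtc
Lig4: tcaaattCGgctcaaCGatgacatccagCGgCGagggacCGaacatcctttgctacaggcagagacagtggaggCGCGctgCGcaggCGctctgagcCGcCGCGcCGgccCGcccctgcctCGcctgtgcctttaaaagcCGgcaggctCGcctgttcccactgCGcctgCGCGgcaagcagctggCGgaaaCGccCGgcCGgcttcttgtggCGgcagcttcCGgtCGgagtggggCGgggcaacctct
Xrcc5: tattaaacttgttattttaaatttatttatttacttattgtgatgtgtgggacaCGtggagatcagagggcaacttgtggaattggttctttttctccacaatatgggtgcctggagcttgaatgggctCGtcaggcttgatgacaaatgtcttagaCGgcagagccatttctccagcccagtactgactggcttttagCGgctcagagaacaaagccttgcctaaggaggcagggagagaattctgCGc

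The Rag1 and Rag2 sequences hold 3 CG dinucleotides each and the Dntt sequence holds 2, against a median of 6 over 32851 promoters of the same length. Xrcc5 has 5, Dclre1c 8 and Nhej1 9. The other general repair genes with an entry have many more: 25 before Xrcc6, 26 before Xrcc4, and 27 and 28 before the 2 starts of Lig4. The E-box letters CANNTG form a palindrome that reads the same on both strands. They occur 3 times before Rag1, 1 time before Rag2 and 3 times before Dntt, and 2 times each before Xrcc5 and Dclre1c. Of the 9 members with an entry, 8 hold at least 1, as do 66.2% of all promoters. These counts describe the letters in these windows. Of the 10 members, 9 had a promoter entry in the RefSeq table, and Prkdc had none.

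The recombinase genes were near the bottom of the measurable range in every Cbx2-/- library. Rag1, the subunit that carries the catalytic site (chromosome 2, 101638282 to 101649501, minus strand, GRCm38), was at 10.4, 15.8 and 8.38 FPKM in wild-type replicates 1 to 3 and at 0.286, 0.0521 and 0.0289 FPKM in Cbx2-/- replicates 1 to 3. The lowest wild-type library was thus far above the highest Cbx2-/- library, and the means were 11.6 ± 3.85 and 0.122 ± 0.142 FPKM (SD, n = 3), a 94.5-fold lower level. On the log2(FPKM + 1) scale, which understates changes of low values, the difference was -3.45 ± 0.22 (SE; limma adjusted p = 0.000213 over 12006 tested genes). The p-values of this fit set the genotype difference against the spread of libraries within each genotype, moderated over all tested genes. They cover these 6 libraries only.

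Rag2, the regulatory partner that lies beside Rag1 on the opposite strand (chromosome 2, 101624718 to 101632529), was at 3.51, 4.76 and 3.24 FPKM in the wild type and at 0.0775, 0.0366 and 0.0183 FPKM in Cbx2-/- libraries. The groups were again far apart, with a mean that was 86.9-fold lower and a difference of -2.2 ± 0.16 (log2, SE; limma adjusted p = 0.000342). In both genes, Cbx2-/- replicate 1 was the highest and replicate 3 the lowest of the Cbx2-/- libraries, with few reads behind replicates 2 and 3. In wild-type libraries Rag1 stood at 2.98, 3.33 and 2.59 times Rag2 per length. In Cbx2-/- libraries that ratio was 3.69, 1.42 and 1.58, each resting on a handful of reads.

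Dntt, the terminal transferase gene (chromosome 19, 41029275 to 41059525, plus strand), was at 25.0, 33.7 and 35.1 FPKM in the wild type and at 1.14, 0.412 and 0.557 FPKM in Cbx2-/- libraries. It was the highest of the lymphoid-only genes in every library. The mean was 44.5-fold lower in Cbx2-/- marrow, with a difference of -4.25 ± 0.20 (log2, SE; limma adjusted p = 0.000104). Of all tested genes, 8.31% were called lower. All 3 lymphoid-only genes stayed past the threshold when any 1 of the 6 libraries was left out.

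The depth limits how well these low levels are known. At the estimated worth of 1 read, Rag1 had about 875, 1222 and 853 reads in the wild type and about 28, 4 and 3 reads in Cbx2-/- libraries. Rag2 had about 152, 190 and 171 against about 4, 2 and 1, and Dntt about 676, 838 and 1151 against about 36, 11 and 16. The pooled ratios of these reads, corrected for depth, were 87.9-fold for Rag1 (95% interval 63 to 126), 89.3-fold for Rag2 (40.7 to 244) and 43.4-fold for Dntt (33.9 to 56.5). The intervals are exact binomial ones, rest on approximate read numbers and cover counting error only. They overlap for Rag1 and Rag2, so the size of the decrease was not distinguishable between the 2 recombinase genes at this depth.

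**Figure D1:**
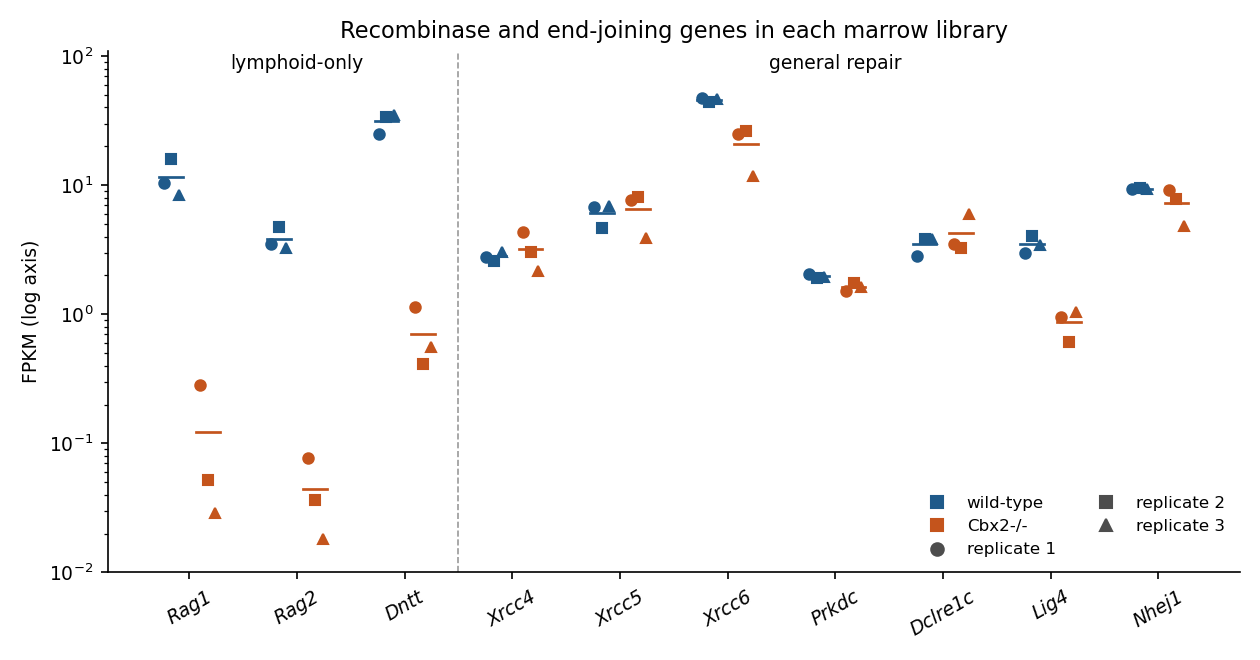
FPKM of the 10 genes (log axis) in each library, with wild type in blue, Cbx2-/- in orange, the replicate number as the symbol and a bar at the group mean. Rag1, Rag2 and Dntt fall from 3.24 FPKM or more in each wild-type library to 1.14 FPKM or less in each Cbx2-/- library, while the general repair genes stay above 0.6 FPKM in all 6.

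In wild-type marrow, the order of the levels per length was led by Xrcc6 at 43.8 to 47.8 FPKM, followed without overlap by Dntt at 25.0 to 35.1 FPKM. Rag1 and Nhej1 came next and overlapped, at 8.38 to 15.8 and 9.30 to 9.45 FPKM. Xrcc5 followed at 4.69 to 6.92 FPKM, overlapping with Rag2 in its lowest library. Rag2, Lig4, Dclre1c and Xrcc4 overlapped with their neighbours in that order between 2.61 and 4.76 FPKM, and Prkdc was lowest at 1.91 to 2.06 FPKM, below all libraries of Xrcc4. In Cbx2-/- marrow Xrcc6 was still the highest member in every library, and Rag1 and Rag2 were the lowest.

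Ku, the dimer that binds broken ends first, is encoded by Xrcc6 (Ku70) and Xrcc5 (Ku80), and the test called the first lower and not the second. Xrcc6 (chromosome 15, 81987835 to 82040085, plus strand) was at 47.8, 43.8 and 46.6 FPKM in the wild type and at 24.7, 26.4 and 11.8 FPKM in Cbx2-/- libraries. All Cbx2-/- libraries were below the wild type, replicate 3 most of all, and the mean was 2.2-fold lower (-1.18 ± 0.28, log2, SE; limma adjusted p = 0.0270). The call was lost when wild-type replicate 1, 2 or 3 was left out, at limma adjusted p of 0.0989, 0.0834 and 0.0972, with a difference that stayed between -1.15 and -1.21. Leaving out Cbx2-/- libraries did not lose it.

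Xrcc5 (chromosome 1, 72307421 to 72394952, plus strand) was at 6.81, 4.69 and 6.92 FPKM in the wild type and at 7.61, 8.12 and 3.88 FPKM in Cbx2-/- libraries. The groups overlapped, and the 95% interval of the difference ran from -0.56 to 0.64 (log2; limma adjusted p = 0.937). The ratio of Xrcc6 to Xrcc5 was 7.01, 9.35 and 6.73 in wild-type and 3.25, 3.25 and 3.03 in Cbx2-/- libraries. These ratios did not overlap between the genotypes. An exact permutation test of 3 against 3 libraries cannot go below p = 0.1, and the ratios were chosen after the values were seen, so they are given as a description.

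The kinase and the nuclease that open hairpin ends were not called. Prkdc, the catalytic subunit of the DNA-dependent protein kinase (chromosome 16, 15637866 to 15842235), was at 2.06, 1.91 and 1.94 FPKM in the wild type and at 1.51, 1.75 and 1.64 FPKM in Cbx2-/- libraries. The groups did not overlap, yet the difference of -0.18 ± 0.12 (log2, SE) did not pass the test (limma adjusted p = 0.377). Dclre1c, which encodes the nuclease Artemis (chromosome 2, 3424131 to 3464130), was at 2.82, 3.81 and 3.86 against 3.53, 3.27 and 6.01 FPKM. Its groups overlapped, with an interval of the difference from -0.29 to 0.69 (limma adjusted p = 0.577). Cbx2-/- replicate 3, the library with few muscle and few proliferation transcripts, was the highest of all 6.

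In the ligation complex, Lig4 was called lower and its partners were not. Lig4, the DNA ligase of this pathway (chromosome 8, 9969049 to 9977686, minus strand), was at 2.96, 4.06 and 3.45 FPKM in the wild type and at 0.954, 0.609 and 1.03 FPKM in Cbx2-/- libraries. No library overlapped, the mean was 4.03-fold lower, and the difference of -1.27 ± 0.16 (log2, SE; limma adjusted p = 0.00270) stayed past the threshold in each of 6 fits without 1 library. About 189, 239 and 267 reads stood behind the wild-type values and about 72, 40 and 70 behind the Cbx2-/- values.

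Xrcc4, the scaffold that holds Lig4 (chromosome 13, 89774027 to 90089608), was at 2.80, 2.61 and 3.04 FPKM in the wild type and at 4.34, 3.05 and 2.18 FPKM in Cbx2-/- libraries. Its groups overlapped and the interval of the difference ran from -0.35 to 0.56 (log2; limma adjusted p = 0.770). The ratio of Lig4 to Xrcc4 was 1.06, 1.56 and 1.13 in wild-type and 0.220, 0.2 and 0.476 in Cbx2-/- libraries, with no overlap. Nhej1, which encodes the XLF protein that aligns ends beside Xrcc4 (chromosome 1, 74967139 to 75125200), was at 9.35, 9.45 and 9.30 against 9.11, 7.86 and 4.8 FPKM. All Cbx2-/- values lay below the narrow wild-type range, but the difference of -0.37 ± 0.21 did not pass the test (limma adjusted p = 0.264).

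Across the 10 members, 5 were called lower and 0 higher, where 8.31% of all tested genes were called lower and 8.8% higher. The 5 were all 3 lymphoid-only genes and 2 of the 7 general repair genes, Lig4 and Xrcc6. The median difference was -3.45 over the lymphoid-only genes and -0.18 over the general repair genes, against 0.02 over all tested genes. In 7 members every Cbx2-/- library lay below every wild-type library, as they did in 18.2% of tested genes, and in 0 members every Cbx2-/- library lay above, as in 21.4% of tested genes. The groups were apart in either direction in 39.6% of tested genes. The log2 ratio of each lymphoid-only to each general repair gene was lower in every Cbx2-/- than in every wild-type library, which the levels given above already fix. The shift was smallest for Dntt over Lig4, with a mean log2 ratio of 3.16 in wild-type and -0.40 in Cbx2-/- libraries, and largest for Rag1 over Dclre1c, with 1.69 and -5.77.

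**Figure D2:**
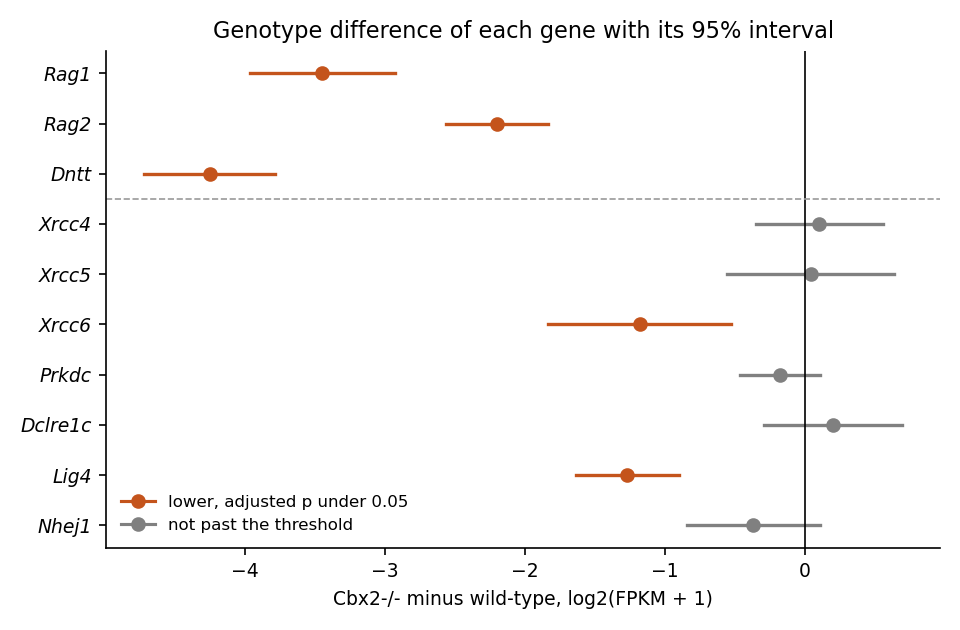
Difference of each gene between genotypes on the log2(FPKM + 1) scale, with points for the limma estimate and lines for its 95% interval. Rag1, Rag2 and Dntt lie between -4.25 and -2.2, Lig4 and Xrcc6 near -1.2, and the intervals of the other 5 genes include 0.

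**Figure D3:**
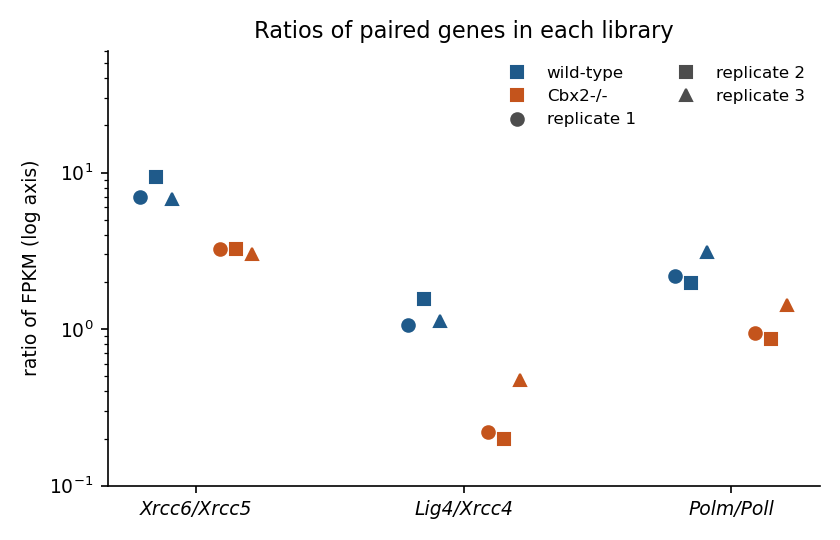
Ratio of FPKM of paired genes (log axis) in each library, with wild type in blue, Cbx2-/- in orange and the replicate number as the symbol. Xrcc6 over Xrcc5, Lig4 over Xrcc4 and the polymerase pair Polm over Poll are lower in each Cbx2-/- library than in each wild-type library.

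The 2 libraries with muscle transcripts and the library with few proliferation transcripts are all in the Cbx2-/- group, so the difference of each member was also read without the former. In that fit, Cbx2-/- replicate 3 stood alone and was assumed to vary like the wild type. Rag1, Rag2 and Dntt differed by -3.57, -2.24 and -4.36 (log2), close to their values in all 6 libraries. Lig4 differed by -1.14 and Xrcc6 by -1.88. Dclre1c then passed the threshold as higher (0.65, limma adjusted p = 0.0319) and Nhej1 as lower (-0.84, limma adjusted p = 0.00405), both on that 1 library. The part of proliferating cells in these 2 values and in that of Xrcc6 was not tested.

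Genes that accompany V(D)J recombination in B cell precursors were low in the same libraries. Of 10 pre-B cell receptor genes, 7 were called lower and 0 higher, with a median difference of -2.44. Vpreb1, a part of the surrogate light chain, was at 37.7, 41.8 and 52.2 FPKM in the wild type and at 1.05, 0.547 and 0.255 FPKM in Cbx2-/- libraries, 70.9-fold lower. Its partner Igll1 was at 71.7, 61.0 and 83.1 against 2.07, 1.59 and 0.208 FPKM. Both were lowest in Cbx2-/- replicate 3, as Rag1 and Rag2 were. For Rag1 and Rag2, the order of replicates 2 and 3 rests on about 4 against 3 and 2 against 1 reads. Dntt and Vpreb3 were instead lowest in replicate 2, at 0.412 and 7.48 FPKM against 0.557 and 14.6 FPKM in replicate 3. Vpreb2 was listed at 0 in the first and the second mutant replicate and at 0.898 FPKM in the third, against 7.65 FPKM or more in each wild-type library, and is uncertain because it is a close copy of Vpreb1. The kinase genes Syk and Lyn did not pass the test. Syk was 1.59-fold lower in the mean, with every Cbx2-/- library below the wild type (limma adjusted p = 0.0509). Lyn overlapped between genotypes (limma adjusted p = 0.831).

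Of 12 B lineage markers, 10 were called lower and 0 higher (median difference -2.23). Cd79a, Cd79b and Blnk were called lower and belong to the pre-B cell receptor list too, so the counts of both lists share them. Cd79a, a signalling chain of the B cell receptor, was at 203, 253 and 266 FPKM in the wild type and at 35.2, 37.4 and 70.7 FPKM in Cbx2-/- libraries. Cd72, a surface receptor gene of B cells, was at 62.7, 74.6 and 82.1 against 4.83, 4.43 and 11 FPKM. In both, Cbx2-/- replicate 3 was the highest of its group. For Rag1 and Rag2 that replicate was the lowest, on a handful of reads. In bulk marrow, fewer cells of a type and less RNA per cell cannot be told apart.

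As a share of the wild-type mean, Rag1 stood at 2.47%, 0.451% and 0.250% in Cbx2-/- replicates 1 to 3, Rag2 at 2.02%, 0.955% and 0.477%, and Dntt at 3.64%, 1.32% and 1.78%. Among the B lineage markers, Cd79a stood at 14.6%, 15.5% and 29.4%, and Fcrla, an Fc receptor-like gene with the smallest share in replicates 2 and 3, at 7.68%, 5.16% and 9.62%. Some genes of the pre-B cell receptor list were at shares like those of the lymphoid-only genes, so such shares are not particular to the latter. Vpreb1 stood at 2.40%, 1.25% and 0.581%, Igll1 at 2.87%, 2.22% and 0.290%, and Vpreb3 at 4.89%, 1.92% and 3.74%. Other genes of that list, Cd79a among them, kept larger shares. Blnk stood at 11% to 24% and Cd79b at 17% to 32%. Syk stood at 54% to 81%, Btk at 89% to 105% and Lyn at 91% to 132%. Set against the mean log2(FPKM + 1) of the 12 markers, the Cbx2-/- minus wild-type difference was -1.39 for Rag1 and -2.19 for Dntt, with no overlap (exact permutation test, two-sided, p = 0.1 each, the smallest that 3 against 3 allow). Rag2 was not distinguishable on that scale (-0.14, exact permutation p = 1), where a pseudocount of 1 is large beside its level. With a pseudocount of 0.1 the values were -3.64 for Rag1, -2.57 for Rag2 and -3.18 for Dntt, each with no overlap. The 10 pre-B cell receptor genes share Cd79a, Cd79b and Blnk with these markers. Against those 10 genes instead, with a pseudocount of 1, the values were -0.86 for Rag1, 0.39 for Rag2 and -1.67 for Dntt, with overlap for Rag2. The size of these differences therefore depends on the pseudocount and on the reference list.

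**Figure D4:**
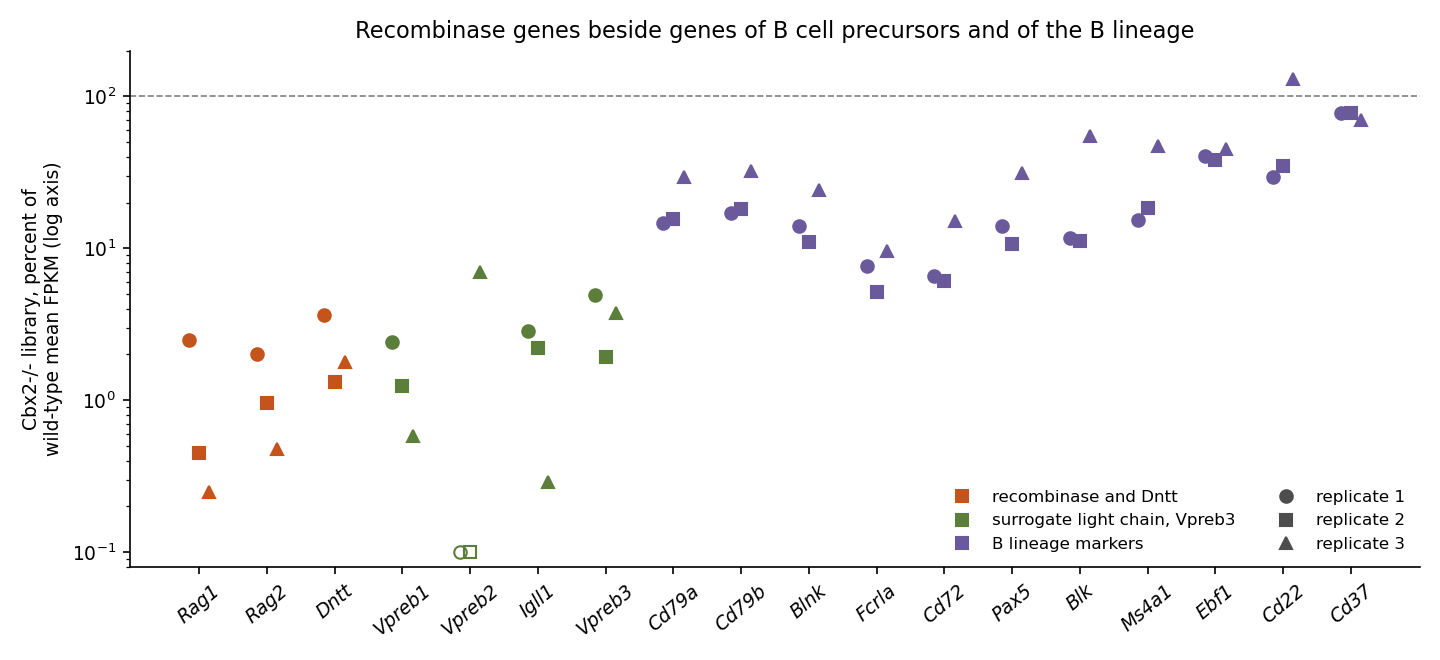
Level of each gene in each Cbx2-/- library as a percent of the wild-type mean FPKM (log axis), with the replicate number as the symbol, a dashed line at the wild-type mean and open symbols at the lower edge for values listed at 0. Recombinase genes and Dntt lie at 3.64% or less, the surrogate light chain genes and Vpreb3 at 6.95% or less, and the plotted B lineage markers (11 of the 12 in the list) at 5.16% or more.

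Thymocytes also recombine receptor genes, so T cell markers were read beside the members. Of 14 such markers, 10 were tested and 0 were called in either direction (limma, median difference 0.38). Of the 10 differences, 2 were below 0. In 3 of the 10, Cd3e, Cd3g and Cd8a, every Cbx2-/- library lay above every wild-type library, as in 21.4% of all tested genes. Their summed level was 30.8 to 50.5 FPKM in the wild type and 33.8, 43.1 and 74.8 FPKM in Cbx2-/- replicates 1 to 3. Only replicate 3 was above the wild-type range. Ptcra, the pre-T cell receptor chain that marks T precursors in recombination, was under 0.3 FPKM in all 6 libraries. Of 6 tested lymphoid progenitor markers, 2 were called lower, Ly6d and Dtx1, and 0 higher. Ly6d, a surface protein of B-committed progenitors, had a mean of 289 ± 60.5 FPKM in the wild type and 36.2 ± 7.82 FPKM in Cbx2-/- marrow (SD, n = 3). Il7r, the receptor chain for the cytokine that early B cells need, was at 10.2, 16.9 and 12.3 FPKM in the wild type and at 1.54, 1.51 and 14.8 FPKM in Cbx2-/- libraries. It did not pass with all 6 libraries (limma adjusted p = 0.140), and without Cbx2-/- replicate 3 it was called lower (-2.46, limma adjusted p = 0.000139), so that library decides the call. Plasmacytoid dendritic cells can carry recombinase transcripts, and 2 of their 7 markers were called lower, Klk1 and Siglech. Beside the counts of these and of the lymphoid progenitor markers, 8.31% of all tested genes were called lower.

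Transcription factors that act on the Rag and Dntt genes were lower in part. Of 17 such regulators, 9 were called lower and 1 higher, with a median difference of -0.63. Without wild-type replicate 2 or 3, or without Cbx2-/- replicate 1, 4 were called lower, and without wild-type replicate 1, 5 were. Pax5, which fixes B cell identity, was at 19.0, 32.1 and 37.2 FPKM in the wild type and at 4.15, 3.13 and 9.28 FPKM in Cbx2-/- libraries (limma adjusted p = 0.00637). Ebf1, the early B cell factor, was at 6.83, 8.01 and 7.39 against 2.98, 2.85 and 3.33 FPKM, and Sox4, a factor of progenitor B cells, was 3.70-fold lower in the mean. Of the 2 genes in the list for inhibitors of E proteins, Id2 was called higher and Id3 lower. Id2 was at 28.7, 31.9 and 32.0 FPKM in the wild type and at 87.4, 79.2 and 83.2 FPKM in Cbx2-/- libraries. Id3 was at 185, 187 and 176 against 88.0, 83.1 and 119 FPKM (limma adjusted p = 0.0146), and its call was lost when any 1 wild-type library or Cbx2-/- replicate 1 was left out (0.0610 to 0.07). Ikzf1, the Ikaros gene, overlapped between genotypes (limma adjusted p = 0.589), as did Gfi1b.

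Some repair genes outside the members were lower, in smaller steps. Of 56 tested genes of 4 lists, 9 were called lower, which is 16.1% of them, and 0 higher, with a median difference of -0.42. Of all tested genes, 8.31% were called lower and 8.8% higher, with a median difference of 0.02. Among 20 accessory end-joining genes 2 were called lower, a count near the share of all tested genes. One was Polm, the end-joining polymerase closest to Dntt, at 12.4, 11.8 and 14.8 FPKM in the wild type and 5.96, 5.14 and 6.79 FPKM in Cbx2-/- libraries (-1.01 ± 0.15, log2, SE; limma adjusted p = 0.00478). The other was Mdc1, a scaffold at breaks, 1.39-fold lower (limma adjusted p = 0.0479), which was called in 1 of 6 fits without 1 library. Poll, the sister polymerase, overlapped at 4.75 to 5.96 and 4.79 to 6.28 FPKM, and the ratio of Polm to Poll was 2.19, 1.99 and 3.12 in wild-type and 0.949, 0.866 and 1.42 in Cbx2-/- libraries. H2afx and Hmgb2, the most abundant genes of the list that were not called, had every Cbx2-/- library below the wild type, as did Tdp2 and Aplf. The same held for 18.2% of all tested genes.

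Of 8 alternative end-joining genes, 2 were called lower: Polq, the polymerase of that pathway, 1.99-fold (limma adjusted p = 0.0164), and Xrcc1, the scaffold of ligase III, 1.49-fold (0.0356). Of 20 homologous recombination genes, 2 were called lower: Brca1, 2.08-fold (limma adjusted p = 0.0185), and Rad51c, 2.51-fold (0.0219). That count is near the 8.31% of all tested genes called lower. Parp1, Fen1 and Lig1 of the first list and Rad54l and Rad54b of the second had every Cbx2-/- library below the wild type without passing. Groups were apart in that direction in 18.2% of all tested genes. Rpa1 and Rpa2 overlapped. Cbx2-/- replicate 3 was the lowest library of both summed lists, at 123 FPKM against 285 to 328 in the wild type for alternative end joining and 140 against 315 to 343 for homologous recombination. Of 14 proliferation genes, 5 were called lower and 0 higher (median difference -0.85), with Mki67 2.08-fold lower (limma adjusted p = 0.00377). Without wild-type replicate 1 or 2, none of the 8 alternative end-joining genes was called lower, and without any 1 wild-type library none of the 20 homologous recombination genes was. These genes are tied to replication, and the part of cell division in their levels was not tested.

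**Figure D5:**
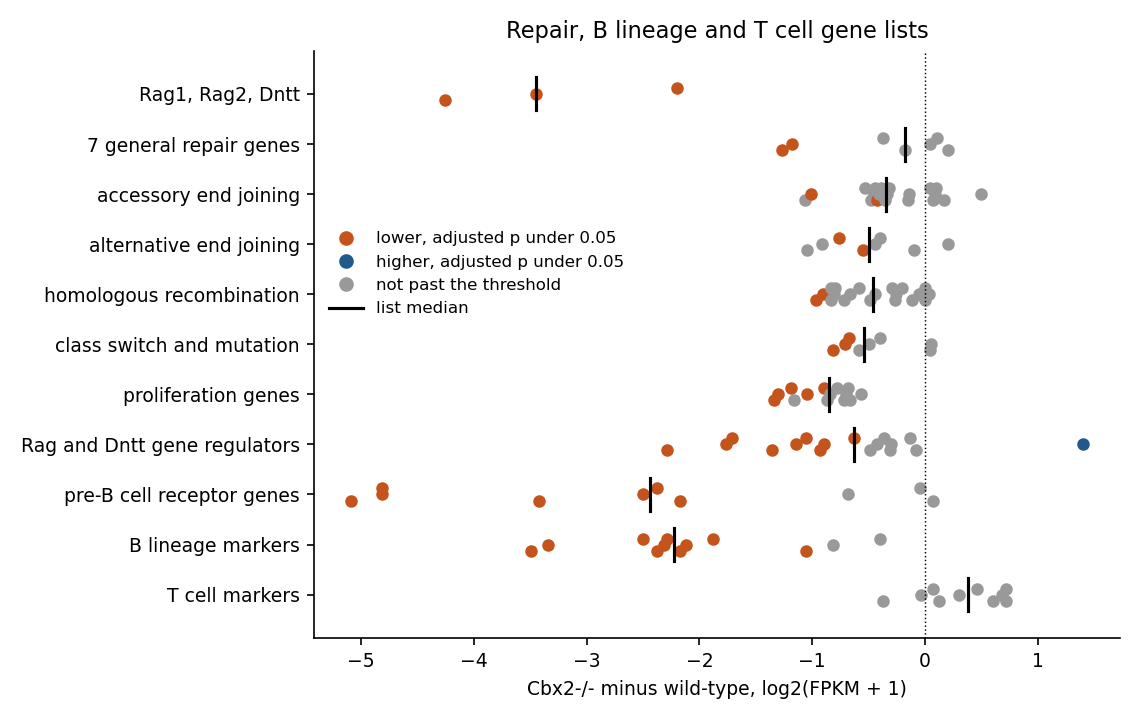
Difference of every tested gene of 11 lists between genotypes on the log2(FPKM + 1) scale, with orange points called lower, the blue point called higher, grey points not past the threshold and a bar at the median of the list. The medians of Rag1, Rag2 and Dntt and of both B lineage lists lie at -2.23 or below, and those of the repair lists between -0.54 and -0.18.

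The tested genes around the recombinase pair were not called. B230118H07Rik spans both Rag1 and Rag2 in GENCODE (chromosome 2, 101560781 to 101649532, minus strand). It was at 2.36 to 3.18 FPKM in the wild type and 2.14 to 4.25 FPKM in Cbx2-/- libraries (limma adjusted p = 0.664). It shares 208 exon bases with Rag2 on the opposite strand, 6.08% of the exons of Rag2, and 80 with Rag1 on the same strand. Its level in Cbx2-/- libraries was above those of both recombinase genes. Traf6, the next gene beside Rag1, overlapped between genotypes (limma adjusted p = 0.659). Beside Dntt, Opalin was listed at 0 in all 6 libraries. Blnk, a B cell adaptor gene 34739 bases from Dntt, was 6.11-fold lower (limma adjusted p = 0.00125).

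Next to Lig4, Abhd13, which starts 1393 bases away, was at 3.52 to 4.45 FPKM in the wild type and 3.40 to 4.50 FPKM in Cbx2-/- libraries (limma adjusted p = 0.984). Desi1, 228 bases from Xrcc6, had Cbx2-/- libraries below the wild type but did not pass (-0.54, limma adjusted p = 0.0832), and Nhp2l1 on the other side overlapped. Xrcc6 and Desi1 share 344 exon bases on opposite strands in GENCODE. Mcm4, a replication gene 465 bases from Prkdc, was 1.55-fold lower in the mean without passing (limma adjusted p = 0.173). Suv39h2, which overlaps Dclre1c by 357 exon bases on the opposite strand, and Tmem167 beside Xrcc4 were not called either. Tmem169 and March4 beside Xrcc5, and Ihh and Slc23a3 beside Nhej1, were under 1 FPKM in all libraries, as were Lrrc4c, Meig1 and Fam155a beside Rag2, Dclre1c and Lig4. Vcan beside Xrcc4, Mzt2 beside Prkdc and Hspa14 beside Dclre1c overlapped between genotypes and were not called.

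The genes with profiles closest to the lymphoid-only members over the 6 libraries were found by the Euclidean distance of centred log2(FPKM + 1) values. For Dntt they were Vpreb1 (distance 0.782), Fam129c (0.790), Vpreb3 (0.930), Myl4 (1.13) and Fcrla (1.15). For Rag1 they were Cpz (0.592), Col1a1 (0.744), Col11a2 (0.750), Fcrla (0.806) and Fam129c (0.815). Those of Rag1 thus include collagen genes of bone as well as B lineage genes. For Rag2 they were Cplx2 (0.368), Cpm (0.380), Rsad2 (0.434), Suox (0.470) and Bcl7a (0.489). The mean of Rag2 was 86.9-fold lower and those of these genes 4.23-fold (Rsad2) to 13.3-fold (Cpm), so closeness here is not a like fold. The distance is smaller where the members' differences on this scale are smaller, so it is not comparable between members.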

How the data were processed

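RNA libraries of 6 mice were stranded and poly(A)-selected and read as 50-base single-end reads, per the labels' protocols. Per the submitters' processing notes, the tools included FastQC 0.11.5, TopHat2 2.1.0 and Cufflinks 2.2.1, with build mm10. For the annotation and the strand setting, nothing is stated in the sources used here. The authors deposited FPKM values per gene and no read counts were used. FPKM is relative, so a value falls when other transcripts take more reads.

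Genes that reached 1 FPKM in 3 or more libraries (12006 of 22838, all 10 members included) were compared as log2(FPKM + 1) with limma 3.58.1 in R 4.3.3 (trend, empirical Bayes, two-sided), with Benjamini-Hochberg adjustment and a threshold of 0.05. Folds are ratios of mean FPKM. The fit was tested on simulated data. The members, gene lists and tests were chosen with earlier results of these data known. Some genes of the lists are not reported here. Genes are named when they are members, among the 4 lowest adjusted p or the 2 most abundant genes not passing in a list, neighbours of a member, or closest in profile, and not all such marker genes are described. Poll, Ptcra, Ptprc and Id3 were chosen outside this rule, after their values were seen. Btk and Cd79b of the pre-B cell receptor list are named outside it too. Reads were estimated from the steps of low FPKM and GENCODE vM21 transcript lengths. The alternatives left out each library or both libraries with muscle transcripts, and changed the pseudocount, filter, scaling, trend, robust fit, sex covariate (Xist above 5 FPKM) and block. Promoter letters (CG, the E-box and 5 other motifs) were chosen after the sequences were seen. Figures were drawn with matplotlib 3.10.9.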

Additional observations from a re-analysis of the deposited data

How the results depend on the processing

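Rag1, Rag2, Dntt and Lig4 stayed past the threshold in the same direction in every alternative fit that tested them (limma adjusted p at most 0.00283, 0.00394, 0.00235 and 0.0186). Xrcc6 lost its call in 4 of 17 alternatives, of which 1 was the fit with no filter on low values (0.0569). Xrcc4, Xrcc5 and Prkdc were called in none. The difference of Rag2 against the B lineage markers turned to 0.39 with the pre-B cell receptor list as the reference and to 0.21 without Cbx2-/- replicate 3, and ranged from -0.31 to 0.21 without 1 library. That of Rag1 ranged from -1.65 to -0.99 and that of Dntt from -2.52 to -1.80. The cause of these changes was not tested.

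Without 1 library, the counts called lower ranged from 1 to 2 for the general repair members, 1 to 4 for accessory end joining, 0 to 3 for alternative end joining, 0 to 6 for homologous recombination, 0 to 4 for class switch genes, 4 to 11 for regulators, 7 to 8 for pre-B cell receptor genes, 8 to 11 for B lineage markers, 0 to 1 for T cell markers, 1 to 3 for lymphoid progenitor and for plasmacytoid dendritic cell markers, 1 to 8 for proliferation, 0 to 3 for break response genes and 475 to 1719 for all tested genes. Without Cbx2-/- replicate 3 the count for all tested genes was highest, and without wild-type replicate 1 it was lowest. All tested genes called higher ranged from 367 to 2069, against 1057 higher and 998 lower with 6 libraries. Without both libraries with muscle transcripts, 2047 genes were called higher and 2714 lower. The counts lower were then 10 for accessory and 6 for alternative end joining, 12 for homologous recombination, 6 for class switch, 14 for proliferation, 3 for break response, 4 for plasmacytoid dendritic cell and 1 for lymphoid progenitor markers. That fit holds Cbx2-/- replicate 3 alone, so its counts describe 1 mouse against the wild type.

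Replicate numbers did not pair the libraries (correlations of same-numbered deviations 0.19, -0.18 and -0.10). With the replicate number as a block, 634 genes were called higher and 734 lower, and the calls of all 10 members stood. The block left 1 lower call each in the accessory, alternative and plasmacytoid dendritic cell lists, 2 in proliferation and 0 in break response, and 1 higher call among T cell markers. The sex covariate left 1 accessory, 1 alternative and 3 proliferation genes lower and 1 T cell marker higher. Equal summed FPKM left 1 accessory and 1 alternative, the fit without trend 1 accessory, and median ratio scaling gave 4 accessory and 4 homologous recombination genes. With no filter, 1 general repair member, 1 accessory, 1 lymphoid progenitor, 1 plasmacytoid dendritic cell, 3 proliferation and 5 regulator genes were lower. A mean of at least 5 FPKM left 1 alternative, 1 homologous recombination, 1 general repair, 1 lymphoid progenitor and 0 plasmacytoid dendritic cell genes, partly because fewer genes were tested. Depth limits the low levels of Rag1 and Rag2 in Cbx2-/- libraries, which rest on 1 to 28 approximate reads.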

Other observations

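Genes of the later changes to antibody genes were read beside the members. Of 8 tested genes of class switching and somatic mutation, 3 were called lower and 0 higher (median difference -0.54), where 8.31% of all tested genes were called lower. They were Apex2, which cuts at sites that have lost a base (limma adjusted p = 0.0135, 1.76-fold lower in the mean), Polh, a polymerase that copies damaged bases (0.0161, 1.83-fold), and Pms2, a mismatch repair gene (0.0344, 1.72-fold). Msh6, a mismatch repair gene too, had every Cbx2-/- library below the wild type but did not pass the test (limma adjusted p = 0.0660).

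Of 10 tested targets of the p53 response to breaks, 1 was called lower, Gadd45a (73.3 ± 7.93 FPKM in the wild type, 42.3 ± 6.92 FPKM in Cbx2-/- marrow, SD, n = 3; limma adjusted p = 0.0219), and 0 higher. That count is near the 8.31% of all tested genes called lower. Gadd45a was called in 3 of 6 fits without 1 library. Cdkn1a, the cell cycle inhibitor gene, and Bax, a cell death gene, overlapped between the genotypes.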
